A study of Homo sapiens with 10 samples.

Results

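The zinc finger genes of human chromosome 19 that carry a ZNF symbol were followed through the loss of nuclear poly(A) tail extension in HEK293 cells, an established human line of embryonic kidney origin. The members were the assembled genes of the deposited table that lie on chromosome 19 and hold, among their gene names, ZNF followed by digits and at most a single letter. This rule found 256 of 30809 assembled genes, here called rows, which carry 248 distinct symbols. The rule used names and positions and no measured value. The symbols of all 248 were found on chromosome 19 in the GENCODE annotation of GRCh37, the same build as hg19, 4 of them under a newer symbol.

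C2H2 zinc finger proteins read DNA through repeated fingers, each folded around a zinc ion that is held by a pair of cysteines and a pair of histidines. Most of those encoded on chromosome 19 also carry a KRAB box at the amino end, which recruits the corepressor TRIM28 and, through it, the histone H3 lysine 9 methyltransferase SETDB1 and the HP1 proteins. They belong to the largest family of human transcription factors, are known for silencing retrotransposons, and arose by repeated tandem duplication, so that neighbours resemble each other in sequence.

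The groups were control total RNA, siPAP total RNA, control nuclear RNA, siPAP nuclear RNA and LALA nuclear RNA, all polyadenylated RNA of cells labelled HEK293, with 2 libraries in each group. The methods of the study use another name for the cells into which the LALA construct was integrated. In the siPAP groups PAPα and PAPγ, the nuclear enzymes that add poly(A) tails (genes PAPOLA and PAPOLG), were depleted together by siRNA for 3 days. LALA is a dominant negative form of PABPN1, the protein that coats poly(A) tails in the nucleus, with the substitutions L119A and L136A, which does not stimulate the polymerases, expressed for 3 days from a tetracycline-responsive promoter in a stable cell line while the endogenous protein was still present. Nuclear RNA was taken from the pellet left after detergent extraction, a fraction that holds chromatin and speckle RNA and has lost soluble nuclear material. The sources used here differ on whether the control of LALA was treated with control siRNA or was the untreated parental line, so the mutant protein, the stable line and the control treatment cannot be told apart in that comparison.

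The table gives 1 mean FPKM for each group and row (fragments of a row divided by its exon length and scaled to library size, hence a relative measure). No value of a single library was analysed here, so the spread between libraries is unknown, no difference was tested, and every fold below is a description of 2 group means. A row was compared where both groups were above 0 and the higher reached 1 FPKM, and it was called higher or lower at 1.5-fold. The targeted genes were lower in the siPAP groups. PAPOLA was at 79.3 FPKM in control total and 11.0 in siPAP total, and at 61.7 in control nuclear and 11.2 in siPAP nuclear RNA. PAPOLG was at 12.2, 3.64, 10.6 and 4.46 FPKM in the same order. The row that holds PABPN1, merged with its neighbour BCL2L2, was at 89.1 FPKM in control nuclear and 162 in LALA nuclear RNA. The nuclear RNA MALAT1, which the study describes as lacking a poly(A) tail, was at 20.4 FPKM in control total and 25.4 in control nuclear RNA. NEAT1 was at 65.7 and 54.7. The cytoplasmic mRNAs were lower in control nuclear RNA, with GAPDH at 1441 and 1102 FPKM, ACTB at 1356 and 1193 and RPL30 at 1568 and 1094. By these markers the fractions differed by less than 1.5-fold, with the cytoplasmic mRNAs lower in the nuclear fraction.

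Fingers of the family have a common frame, shown here by 1 finger each of the 2 highest rows, of ZNF726, which was among the most raised in LALA cells, and of ZNF91, a silencer of SVA retrotransposons. Each line is a run of 84 bases of coding sequence (1 finger and the linker to the next) read from GRCh37, with the codons of the zinc-binding cysteines and histidines in capitals. The run of ZNF146 lies at chr19:36727562-36727645 on the plus strand, that of ZNF121 at chr19:9677270-9677353 on the minus strand, that of ZNF726 at chr19:24115945-24116028 on the plus strand and that of ZNF91 at chr19:23544896-23544979 on the minus strand.
ZNF146: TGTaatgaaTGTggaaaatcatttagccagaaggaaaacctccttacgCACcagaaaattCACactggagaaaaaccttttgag
ZNF121: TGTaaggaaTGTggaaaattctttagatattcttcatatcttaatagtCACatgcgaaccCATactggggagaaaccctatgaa
ZNF726: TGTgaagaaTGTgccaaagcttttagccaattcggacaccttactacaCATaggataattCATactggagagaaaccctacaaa
ZNF91: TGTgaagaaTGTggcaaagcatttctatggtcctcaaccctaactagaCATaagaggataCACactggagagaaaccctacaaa
Of the 84 bases, 54 in ZNF121, 57 in ZNF726 and 53 in ZNF91 were the same as in ZNF146 at the same place. Longer stretches in common could bear on the counting of reads of 100 bases. Among 245 symbols with a canonical GENCODE transcript, 147 shared no stretch of 100 bases with the canonical transcript of another gene, 39 shared more than 10% of their stretches and 10 shared more than 50%, up to 92.2% in ZNF709. ZNF833P shared 89.3%, ZNF20 72.8%, ZNF724P 51.5%, ZNF738 24.1% and ZNF417 23.5% of their stretches with other genes. These and ZNF709 are named below, alone or in the merged rows ZNF20,ZNF625 and ZNF417,ZNF814. All stretches shared by ZNF20 were with ZNF625-ZNF20, an entry that carries its name. ZNF417 shared most with ZNF587, and ZNF709, ZNF833P, ZNF724P and ZNF738 with entries that have no gene symbol. Whether such entries overlap the gene at the same position was not examined, so the values of these rows may be uncertain.

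The ZNF rows of chromosome 19 were expressed broadly and at modest levels. In bulk RNA, a lower level in all cells and expression in fewer cells cannot be told apart. In control total RNA 205 of the 256 rows (80.1%) reached 1 FPKM, against 41.3% of all rows and 43.7% of the other annotated rows of the chromosome, and 79.6% of the 270 ZNF rows on other autosomes. Their median was 6.56 FPKM, against 0.324 over all rows. Of the 256 rows 85 reached 10 FPKM, against 7327 of all 30809 rows. Among rows that reached 1 FPKM the median was 8.26 FPKM for the ZNF rows and 13.3 over all rows. At the low end 40 rows stayed under 1 FPKM in all 5 groups, and ZNF826P was listed at 0 in each.

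ZNF146, which encodes a protein built almost only of fingers and without a KRAB box, was the highest row (chr19:36673187-36729675), with 157 and 142 FPKM in control total and control nuclear RNA, 137 and 120 in the siPAP fractions and 124 in LALA nuclear RNA. Its level was lower in each treated group than in the control of the same fraction, by less than 1.2-fold. ZNF121, likewise without a KRAB match and known to bind MYC, came next with 79.8 and 98.1 FPKM in the control fractions, 107 and 139 in the siPAP fractions and 107 in LALA nuclear RNA. It was higher in each treated group, with log2 folds of 0.43, 0.50 and 0.13, none past 1.5-fold. The next 6 rows were the KRAB members ZNF302, ZNF529, ZNF254, ZNF317 and ZNF266 and ZNF507, which lacks a KRAB match, at 31.6 to 38.4 FPKM in control total RNA. Of these, ZNF529 was past 1.5-fold in siPAP cells, at 36.0 and 54.9 FPKM in control and siPAP total RNA and 39.0 and 61.5 in control and siPAP nuclear RNA, and at 48.6 in LALA nuclear RNA.

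**Figure D1:**
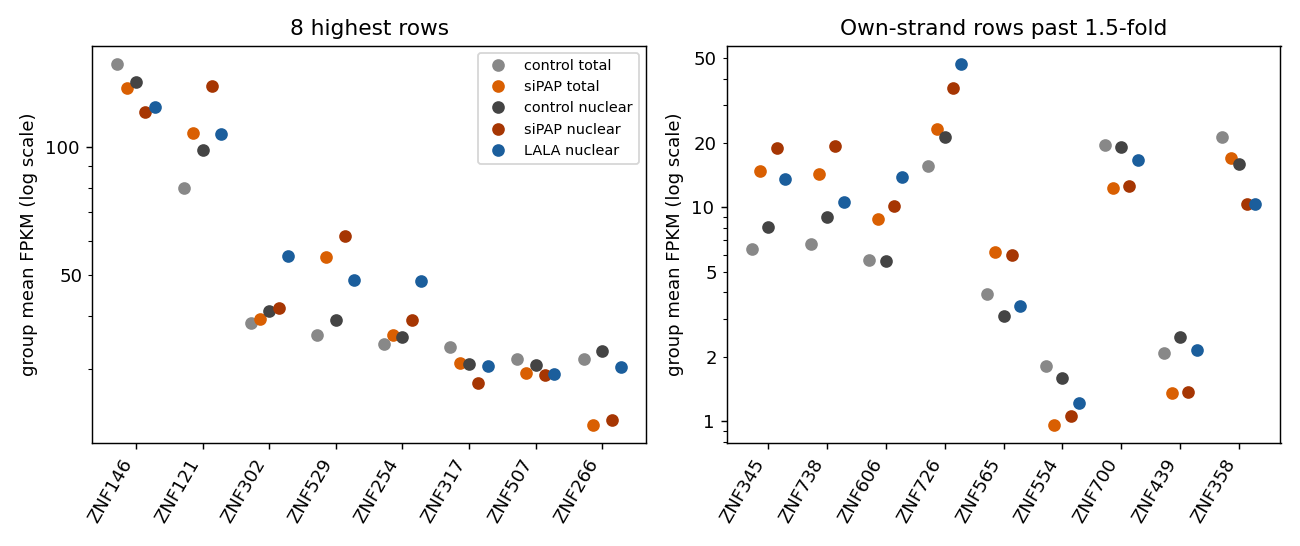
Group mean FPKM (log scale) of the 8 highest rows (left) and of 9 rows of the gene's own strand past 1.5-fold in a comparison (right), 1 point for each of the 5 groups, with no error bars because only group means are given. ZNF146 runs from 120 to 157 FPKM, while ZNF726 runs from 15.7 in control total to 46.9 in LALA nuclear RNA.

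A ZNF name did not always stand for the ZNF transcript. Libraries were stranded, and on chromosome 19 the assembly numbers follow the start positions in 2 long runs. Of other annotated genes with a name that stands alone and in a single row, 581 of 583 in the first run are on the plus strand in GENCODE. In the second run 526 of 528 are on the minus strand. The table has no strand column, so the run was taken to give the strand of a row. By this inference 23 of the 256 rows, of 20 genes, lie on the strand opposite to the gene whose name they carry. Most of these carry a name found in several rows, a kind that the check on other genes left out. All 23 have a second row on the gene's own strand with the same locus limits, which cover both rows, so the extent of each transcript is not resolved. In 22 of the 23 the locus holds another annotated gene on the opposite strand. The other-strand rows were low, with a median of 0.437 FPKM in control total RNA against 4.64 for their own-strand partners, and 20 of the 23 were under 1 FPKM there. The study itself notes that its assembly named some noncoding RNAs after a gene they overlap or adjoin. A further 19 rows merge several names, so that their members cannot be separated.

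Depletion of PAPα and PAPγ left most ZNF rows of total RNA near their control level. Of 212 rows compared, 13 were at least 1.5-fold higher in siPAP total RNA and 9 lower (6.13% and 4.25%), against 9.55% and 7.14% of all 13318 rows compared and 6.63% and 6.95% of the annotated rows. At 2-fold, 8 ZNF rows were higher and 0 lower, against 5.41% and 1.55% of all rows. The median log2 fold was -0.07 for the ZNF rows and -0.06 for all rows. The rows of the 2 strands stood apart. Of 202 own-strand rows 6 were higher and 9 lower, with a median of -0.09. Of the 10 other-strand rows compared, 7 reached 1 FPKM in siPAP cells alone and so had to be higher, and those rows are therefore counted without a minimum level. Among all 23, 13 were at least 1.5-fold higher and 0 lower, against 21.4% and 12.2% of all rows counted in this way and 8 and 16 of 225 own-strand rows.

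The 5 highest folds in total RNA were all other-strand rows. The row named ZNF614 was at 0.393 FPKM in control and 2.16 in siPAP total RNA (5.50-fold), and ZNF546 at 0.709 and 2.97 (4.19-fold). ZNF83 went with 0.374 and 1.28 FPKM, ZNF583 with 0.437 and 1.34, and ZNF506 with 0.815 and 2.42. All of these were under 1 FPKM in control cells, where a mean is least certain, and the number of reads behind it is not known here.

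Among own-strand rows, ZNF345, whose canonical transcript encodes 15 fingers with no KRAB match, had the highest fold in siPAP total RNA, with 6.41 FPKM in control and 14.9 in siPAP cells (2.32-fold). ZNF738 followed with 6.73 and 14.3 FPKM. The merged row ZNF417,ZNF814 was at 7.02 and 13.5 FPKM and ZNF565 at 3.93 and 6.16. ZNF606 and ZNF529 were the other own-strand rows above 1.5-fold. The lower rows were led by ZNF837, at 1.05 FPKM in control and 0.535 in siPAP total RNA, and ZNF554, at 1.80 and 0.955. ZNF724P was at 15.2 and 8.97 FPKM, ZNF700 at 19.5 and 12.3 and ZNF557 at 3.88 and 2.48. Of these 5 lower rows, ZNF724P and ZNF700 were above 10 FPKM in control cells.

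Nuclear RNA of siPAP cells gave a similar picture from other libraries. Of 211 ZNF rows compared, 18 were at least 1.5-fold higher and 6 lower (8.53% and 2.84%), against 11.3% and 8.18% of all rows and 7.53% and 8.15% of annotated rows, with median log2 folds of -0.02 and -0.09. At 2-fold, 8 were higher and 0 lower, against 6.82% and 2.02%. Of 202 own-strand rows 11 were higher and 6 lower. Without a minimum level 16 of the 23 other-strand rows were higher and 0 lower, against 22.3% and 12.9% of all rows. ZNF345 was at 8.08 FPKM in control and 18.99 in siPAP nuclear RNA (2.35-fold) and ZNF738 at 9.05 and 19.3 (2.13-fold), close to their folds in total RNA. ZNF565 was at 3.09 and 5.97 FPKM. Own-strand rows past 1.5-fold in the nuclear fraction that missed it in total RNA were ZNF726 (21.3 and 36.4 FPKM, against 15.7 and 23.3 in total RNA), ZNF253 (12.4 and 21.5, against 11.9 and 17.2), ZNF426, ZNF404 and ZNF540. Their folds in total RNA lay between 1.20 and 1.48, so the 2 fractions were not far apart.

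The lower rows of siPAP nuclear RNA were led by ZNF439, a KRAB member, with 2.48 FPKM in control and 1.37 in siPAP cells. The merged row ZNF20,ZNF625 was at 15.6 and 8.82 FPKM and ZNF497 at 1.18 and 0.707. ZNF358 was at 15.9 and 10.4 FPKM and ZNF296 at 1.67 and 1.09. ZNF439, ZNF497, ZNF700 and ZNF20,ZNF625 were lower by 1.5-fold in both fractions. In the merged row the siPAP and LALA means lay on opposite sides of control, with 18.3 FPKM in LALA nuclear RNA.

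In LALA nuclear RNA the ZNF rows stood above the bulk of the table. Of 214 rows compared, 21 were at least 1.5-fold higher and 1 lower (9.81% and 0.467%), against 11.5% and 5.03% of all 13880 rows and 6.85% and 4.88% of annotated rows. At 2-fold, 9 were higher and 0 lower, against 7.73% and 0.627%. The median log2 fold was 0.10, with 145 rows (67.8%) above control, while over all rows it was -0.16 with 31.1% above control, and over the other annotated rows of chromosome 19 it was -0.25 with 24.5%. The ZNF rows of other autosomes lay between, at 0.01 and 53.2%. FPKM is relative to the library, and centring on the median of all rows places the ZNF median at 0.26 on the log2 scale, with 40 rows higher and 0 lower. The share of all rows after the same centring is not given here, so these 2 counts cannot be set against 11.5% and 5.03%. Own-strand rows alone had a median of 0.09, with 11 of 202 higher and 1 lower, so the difference from the bulk was not limited to the other-strand rows. Of the 23 other-strand rows 19 were higher and 0 lower without a minimum level, against 26.8% and 6.41% of all rows.

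**Figure D2:**
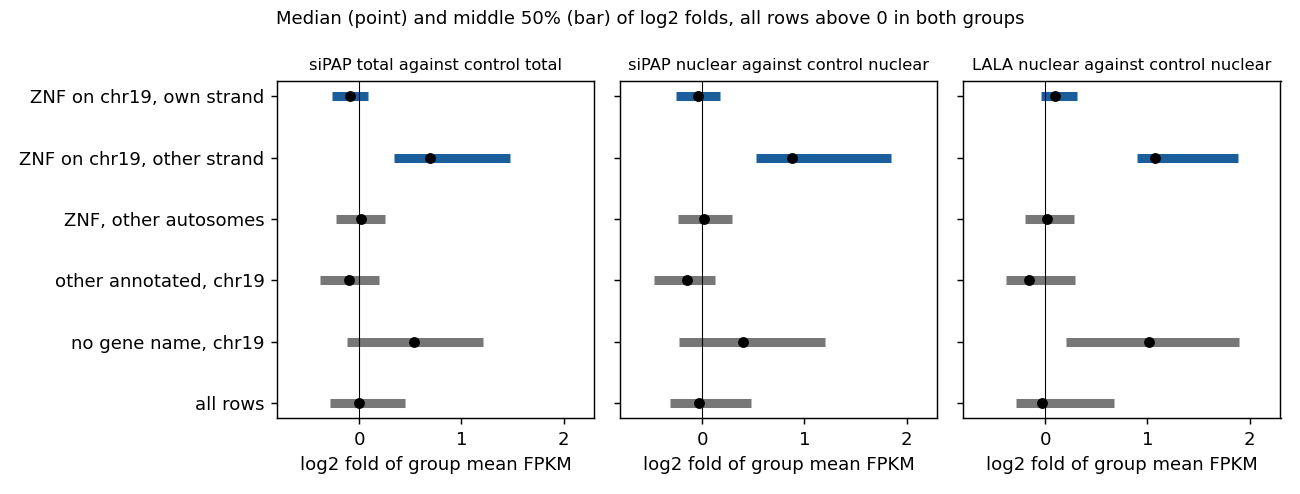
Median (point) and middle 50% (bar) of the log2 folds of group mean FPKM in the 3 treatment comparisons, for all rows above 0 in both groups and with no minimum level, the ZNF rows of chromosome 19 split by strand in blue and other sets of rows in grey. The bars show the spread over rows and not over libraries. Other-strand ZNF rows have medians of 0.70, 0.88 and 1.07, own-strand ZNF rows -0.09, -0.04 and 0.10, and rows of the chromosome with no gene name 0.54, 0.40 and 1.02.

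ZNF606, a KRAB member reported to restrain ERK-dependent transcription, had the highest fold of an own-strand row, with 5.61 FPKM in control and 13.9 in LALA nuclear RNA (2.48-fold). ZNF726 was at 21.3 and 46.9 FPKM (2.21-fold), the largest difference in FPKM among the rows higher by 1.5-fold. ZNF540 was at 2.01 and 3.93 FPKM. The other own-strand rows past 1.5-fold were ZNF816,ZNF816-ZNF321P, ZNF578, ZNF426, ZNF345, ZNF878, ZNF404, ZNF256 and ZNF552, between 1.55-fold and 1.75-fold. ZNF358 was the lone row lower by 1.5-fold, with 15.9 FPKM in control and 10.3 in LALA nuclear RNA. The next lowest were ZNF497 (1.18 and 0.837 FPKM), ZNF787 (9.17 and 6.75), ZNF71 (3.82 and 2.85) and ZNF554 (1.59 and 1.22).

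Of 210 ZNF rows compared in all 3 treatment comparisons, 8 were at least 1.5-fold higher in each (3.81%) and 0 lower in each, against 5.5% and 1.14% of all 13065 rows and 3.46% higher among annotated rows, which leave out the loci with no gene name. The 2 nuclear comparisons share the control nuclear libraries, so they are not independent of each other. Among the 8, 6 were other-strand rows, named ZNF506, ZNF45, ZNF614, ZNF833P, ZNF546 and ZNF583, and the remaining 2, ZNF345 and ZNF606, were own-strand rows. All of these other-strand rows but ZNF833P were under 1 FPKM in control total RNA. In siPAP total RNA they were thus compared only because the treated mean reached 1 FPKM, and could only be higher. Without a minimum level 13 of the 23 other-strand rows were higher in each of the 3. The share was 12.3% over all rows and 5.74% over annotated rows. Of rows of chromosome 19 with no gene name 55 of 190 (28.9%) were higher in each, and of own-strand rows 4 of 224 (1.79%).

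The other-strand row named ZNF546 was at 0.709 FPKM in control total, 2.97 in siPAP total, 0.578 in control nuclear, 3.05 in siPAP nuclear RNA and 3.43 in LALA cells. Its own-strand partner in the same locus (chr19:40476912-40528227) was at 2.62, 2.96, 3.39, 3.43 and 4.14 FPKM. This other-strand row was several-fold below its partner in control cells and close to it in the treated groups. A second other-strand row of that locus was at 1.21, 1.81, 1.17, 2.45 and 2.22 FPKM, above its control in each treated group but 1.49-fold in siPAP total RNA and below the partner throughout. For ZNF614 (chr19:52516577-52533245) the other-strand row was at 0.393, 2.16, 0.621, 3.35 and 1.59 FPKM in the same order, and its partner at 15.6, 11.8, 13.5, 11.3 and 13.8. Here siPAP gave a higher mean than LALA, while for ZNF506 (chr19:19899351-19932598) LALA gave the highest mean, with 0.815, 2.42, 0.993, 3.43 and 4.14 FPKM beside a partner at 12.7, 11.8, 12.8, 12.7 and 14.3.

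The other-strand row named ZNF583 (chr19:56905045-56938320) was at 0.437, 1.34, 0.411, 1.54 and 1.93 FPKM, and its partner at 4.64, 4.92, 4.56, 5.26 and 6.57. A row named ZNF45 (chr19:44407645-44439435) was at 0.822, 2.14, 1.00, 2.59 and 2.10 FPKM, beside a partner at 16.8, 15.01, 16.8, 14.2 and 15.3. A second other-strand row named ZNF45 stayed under 0.4 FPKM in every group. The row named after the pseudogene ZNF833P (chr19:11750548-11805799) was the highest of them in control cells, at 3.77, 6.09, 4.04, 6.83 and 7.75 FPKM, and its partner was at 10.2, 13.5, 11.1, 13.9 and 15.3. These 6 rows were chosen for their folds. Over all 23 pairs without a minimum level, the log2 fold of the other-strand row exceeded that of its partner in 21 of 23 pairs in siPAP total RNA, and in 17 of 22 pairs in each of the nuclear comparisons, siPAP and LALA. Median log2 folds were 0.70, 0.84 and 1.07 for the other-strand rows and 0.00, 0.01 and 0.07 for the partners. The pairs cover 20 genes, and ZNF45, ZNF132 and ZNF546 each set several other-strand rows against the same partner, so the pairs are not independent. In 4 pairs the other-strand row was the higher one in control total RNA. The partners of ZNF788 and ZNF575 were near 0 there, at 0.0341 and 0.0723 FPKM.

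**Figure D3:**
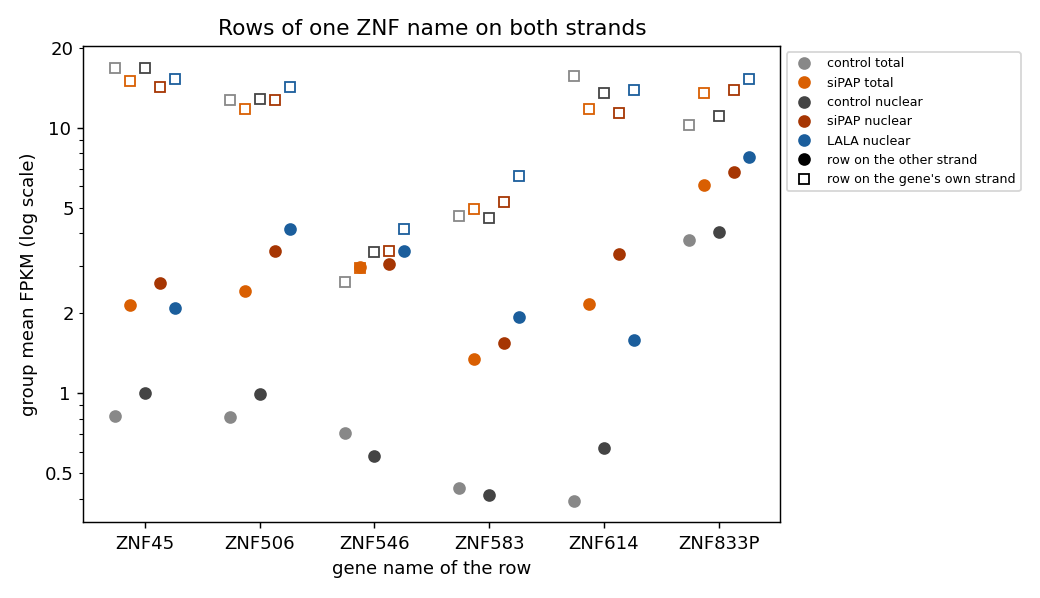
Group mean FPKM (log scale) of the 6 other-strand rows higher by 1.5-fold in all 3 treatment comparisons (filled circles) and of the row of the same name on the gene's own strand (open squares), coloured by group, with no error bars because only group means are given. The filled points of control cells lie between 0.393 and 4.04 FPKM. Each filled treated point lies above its control, which follows from how the rows were chosen. The squares of ZNF45 and ZNF614 stay between 11.3 and 16.8 FPKM.

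The promoters of 3 of these loci are shown because these loci hold rows of both strands, whose folds differed. Each is RefSeq sequence of GRCh38.p14 from 250 bases before to 50 bases after the listed start of the ZNF gene, on the strand of that gene, with CG dinucleotides in capitals. The positions are chr19:39996810-39997109 (plus strand) for ZNF546, chr19:52028330-52028629 (minus strand) for ZNF614 and chr19:43935233-43935532 (minus strand) for ZNF45.
ZNF546: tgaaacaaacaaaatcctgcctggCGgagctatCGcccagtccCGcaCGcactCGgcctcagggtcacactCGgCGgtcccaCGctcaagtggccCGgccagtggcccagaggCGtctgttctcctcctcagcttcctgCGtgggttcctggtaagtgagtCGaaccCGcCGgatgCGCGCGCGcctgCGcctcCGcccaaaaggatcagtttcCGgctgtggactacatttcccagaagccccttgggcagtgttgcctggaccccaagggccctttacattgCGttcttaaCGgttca
ZNF614: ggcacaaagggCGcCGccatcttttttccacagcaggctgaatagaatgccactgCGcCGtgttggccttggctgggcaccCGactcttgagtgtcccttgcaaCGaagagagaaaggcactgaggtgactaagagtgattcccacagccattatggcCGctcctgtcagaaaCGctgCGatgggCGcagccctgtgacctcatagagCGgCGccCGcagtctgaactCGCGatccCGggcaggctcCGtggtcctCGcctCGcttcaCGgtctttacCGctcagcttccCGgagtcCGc
ZNF45: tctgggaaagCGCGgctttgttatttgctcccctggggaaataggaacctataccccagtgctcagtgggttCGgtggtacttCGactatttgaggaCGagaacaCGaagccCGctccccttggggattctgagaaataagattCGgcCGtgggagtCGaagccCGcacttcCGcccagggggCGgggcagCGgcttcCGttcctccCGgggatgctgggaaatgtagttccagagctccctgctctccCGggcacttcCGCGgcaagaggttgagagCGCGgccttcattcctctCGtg
They hold 23, 23 and 22 CG dinucleotides. Of the 248 symbols 211 were matched to a promoter in RefSeq, with a median of 20 CG dinucleotides and 60% GC, against 14 and 58.3% over all 27305 promoters. The letters TATAAA, searched on both strands, were found in 4 of the 211 ZNF promoters (1.90%) and 3264 of all 27305, and AATAAA, the letters of the poly(A) signal, in 19 and 4854. None of the 3 promoters shown holds either run of letters. The locus limits do not give the start of an other-strand transcript, so its distance from these promoters is not known.

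Nuclear and total RNA gave similar group means for the ZNF rows. In control cells 0 of 206 ZNF rows differed by 1.5-fold between nuclear and total RNA in either direction, against 8.57% of all 13001 rows higher and 1.64% lower in nuclear RNA, and 1 higher and 1 lower of 218 ZNF rows on other autosomes (all rows 1.19% and 0.515% at 2-fold). The log2 ratios ran from -0.46 to 0.44 around a median of 0.04, and the median of all rows was -0.02. The highest were ZNF726 (15.7 FPKM in total and 21.3 in nuclear RNA), ZNF738 (6.73 and 9.05), ZNF709 (2.89 and 3.79) and ZNF552 (4.01 and 5.24). The lowest were ZNF574 (7.29 and 5.32), ZNF358 (21.3 and 15.9), ZNF565 (3.93 and 3.09) and the merged row ZNF324,ZNF446 (7.11 and 5.78). After siPAP 3 of 210 rows were higher in nuclear RNA and 1 lower, against 4.86% and 1.4% of all rows, and 0 reached 2-fold either way, against 1.02% and 0.372%. These were ZNF578, ZNF726 and the other-strand row of ZNF614 on the higher side and ZNF358, at 17.0 FPKM in siPAP total and 10.4 in siPAP nuclear RNA, on the lower.

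Features of the transcripts were read from GENCODE release 44 for 210 of 213 own-strand names that stand alone in a row. Of 201 with an intact reading frame, 170 had a match to the KRAB A box and 31 had none. They encoded 3 to 36 fingers with a median of 13, the most in ZNF208. Their transcripts had a median of 4 exons and 42.0% GC, against 7 exons and 49.6% GC for other annotated rows, and the range of GC was wide, from 33.2% to 70.8%.

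In LALA nuclear RNA the log2 fold was lower in GC-rich ZNF transcripts. The median was 0.12 over 141 rows under 45% GC, 0.00 over 26 rows at 45 to 55% and -0.24 over 14 rows at 55% or more. In annotated rows that are no member it was -0.16, -0.20 and -0.24 in the same bins, so the ZNF rows lay above other rows in the GC-poor bin and at the same value in the GC-rich bin. Across 181 ZNF rows, which are not independent replicates and share their libraries, Pearson's r between GC and the log2 fold was -0.41 and Spearman's rho -0.37, against -0.08 and -0.16 over 11574 other annotated rows. For siPAP against control r was -0.24 in both fractions, against -0.05 in total and -0.07 in nuclear RNA over other annotated rows. Between nuclear and total RNA of the same cells r was -0.16 in control and -0.25 in siPAP cells. Spearman's rho there was -0.07 and -0.12, and r over other annotated rows was 0.07 and 0.04. The 5 lowest ZNF rows in LALA nuclear RNA had 51.1% to 70.4% GC, while ZNF606, ZNF726 and ZNF540 were all under 45%.

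The rows with a KRAB match had a median log2 fold of 0.10 in LALA nuclear RNA (106 of 153 above control) and those without it -0.03 (11 of 24 above control). Split further by GC, the 13 rows without a KRAB match under 55% GC had a median of 0.13 (9 above control), beside 0.11 over 150 rows with the match. At 55% GC or more the 11 rows without the match had a median of -0.27 (2 above control), and the 3 with it, ZNF71, ZNF584 and ZNF324B, were all below control, between -0.42 and -0.08. ZNF transcripts of 15 or more fingers had a median of 0.12, those of 10 to 14 fingers 0.09 and those under 10 fingers -0.02. In siPAP total RNA the medians with and without the KRAB match were -0.09 and -0.12, and in siPAP nuclear RNA -0.02 and -0.07.

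**Figure D4:**
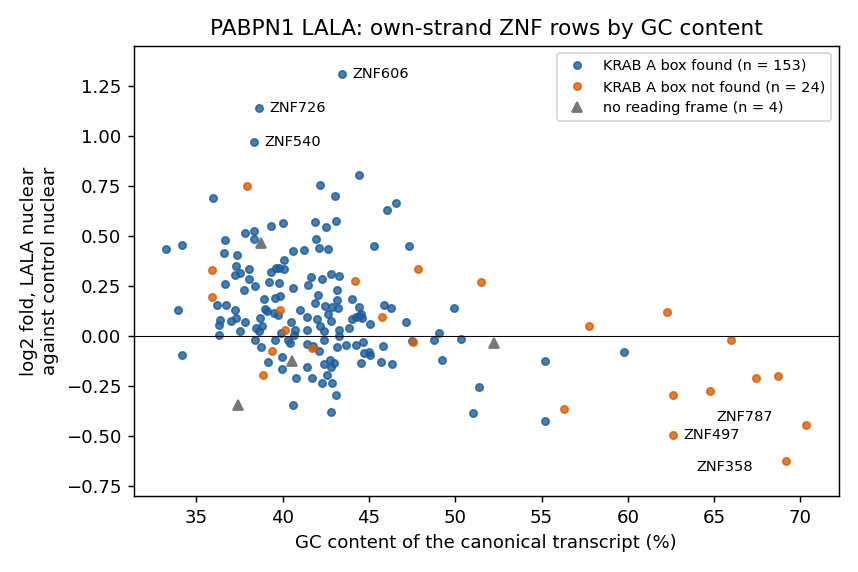
Log2 fold of group mean FPKM in LALA nuclear against control nuclear RNA (vertical) by GC content of the canonical transcript in percent (horizontal). The points are the 181 own-strand ZNF rows with a name that stands alone, a GC content and a fold. They are blue with and orange without a match to the KRAB A box, and grey triangles where there is no reading frame. Rows of 55% GC or more lie mostly under 0, with a median of -0.24, and the named rows ZNF606, ZNF726 and ZNF540 lie at the top left.

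Along the chromosome 248 of the 256 rows fell into 10 groups of at least 5 rows with gaps under 1 Mb. The largest, with 59 rows, spans chr19:55987478-58992771 at the end of the long arm, from ZNF628 to ZNF446. The group of 37 rows at chr19:19779564-24312789, which holds ZNF43, ZNF85, ZNF91, ZNF93, ZNF257, ZNF675, ZNF726 and ZNF738 and is known as a primate expansion of the family, had the highest medians of the 6 groups with over 20 rows in siPAP total RNA (log2 fold 0.07) and siPAP nuclear RNA (0.16). The group of 29 rows at chr19:11594242-12742833, with ZNF439, ZNF700, ZNF20 and ZNF709, had the lowest median in siPAP total RNA, -0.32. Of its 23 rows compared, 3 were lower and 1 higher, against 7.14% and 9.55% of all rows. These counts are too small to be read as a difference from those shares. In LALA nuclear RNA the group of 26 rows at chr19:36673187-38270591, with ZNF146, ZNF345, ZNF529 and ZNF565, had a median of 0.25, and the medians of the 10 groups ran from -0.04 to 0.43.

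Members with a known role mostly stayed within 1.5-fold. ZNF91 was at 17.1 FPKM in control total, 17.4 in siPAP total, 18.3 in control nuclear, 20.4 in siPAP nuclear RNA and 25.5 in LALA cells. ZNF93, which silences LINE-1 elements, was under 0.3 FPKM in every group. ZNF274, which brings SETDB1 to the bodies of other ZNF genes, was at 14.7, 13.3, 13.3, 12.3 and 13.0 FPKM, nearly level. ZNF473, a component of the U7 machinery that cuts the 3′ ends of histone transcripts, was at 10.4, 8.61, 8.89, 8.39 and 11.2 FPKM, likewise without a fold past 1.5.

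ZNF331, which is imprinted, was at 22.0, 31.4, 22.4, 32.7 and 23.0 FPKM in the same order, higher in siPAP cells in both fractions and level in LALA cells, with folds under 1.5. ZNF350, a partner of BRCA1, was between 5.89 and 6.56 FPKM and ZNF224, a repressor of the aldolase A gene, between 5.09 and 5.93. ZNF304, a KRAB member linked to gene silencing in colorectal cancer cells, was between 6.76 and 8.20 FPKM, and ZNF382, described as a tumour suppressor, between 9.07 and 11.5. ZNF675, which binds the signalling adaptor TRAF6, was between 14.4 and 18.7 FPKM. ZNF43 was between 19.7 and 25.7 FPKM, ZNF85 between 21.5 and 28.5 and ZNF257 between 3.74 and 4.34. Among these 15 genes ZNF606 was the lone row past 1.5-fold in any treatment comparison.

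The proteins through which KRAB repressors act are encoded elsewhere in the table. All 16 genes of a list of such cofactors were found, in 17 rows, with a median log2 fold of -0.31 in LALA nuclear RNA, -0.08 in siPAP total and -0.05 in siPAP nuclear RNA, beside -0.16, -0.06 and -0.09 over all rows and -0.18, -0.07 and -0.11 over annotated rows. TRIM28, which the KRAB box binds, was at 150 FPKM in control total, 124 in siPAP total, 134 in control nuclear, 111 in siPAP nuclear RNA and 107 in LALA cells. SETDB1 was at 19.99, 18.3, 17.4, 16.9 and 16.3 FPKM. Both were highest in control total RNA, and neither was past 1.5-fold. In each treatment comparison 1 of the 17 rows was called higher and 0 lower (11.5% and 5.03% of all rows in LALA nuclear RNA). It was a second, low row named CHD3, a chromatin remodeller, at 0.565 FPKM in control and 2.90 in LALA nuclear RNA. This low row was under 1 FPKM in both control fractions and reached the minimum level in treated cells alone, so it could only be higher. The main CHD3 row, with the same locus limits, was at 17.7 FPKM in control and 12.5 in LALA nuclear RNA, not past 1.5-fold.

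Of 16 listed C2H2 genes of the chromosome with other symbols 15 were found in 14 rows outside the ZNF rows, and 9 of these rows were compared. Their median log2 fold in LALA nuclear RNA was 0.14. ZSCAN22 was the row higher by 1.5-fold in LALA cells, at 1.87 and 3.34 FPKM, and also in siPAP nuclear RNA, at 2.85. MZF1, a myeloid zinc finger, was at 2.69 FPKM in control total and 4.92 in siPAP total RNA, and at 2.51 in control nuclear, 4.95 in siPAP nuclear RNA and 2.77 in LALA cells, so its LALA mean stayed near control. ZFP112 was at 12.9 FPKM in control and 20.3 in siPAP nuclear RNA.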

How the data were processed

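The values are FPKM of 10 libraries as deposited by the authors: stranded poly(A) libraries, paired reads mapped with TopHat2 to hg19, transcripts assembled with Cufflinks, and group means of 2 libraries computed by Cuffdiff. The table also holds the authors' fold changes, test scores, p-values and q-values for pairs of groups, which were not used. The sources used here do not give the reads per library, so depth is unknown and no interval, SD or test is given. From the group means, ratios and log2 ratios were computed with no pseudocount (Python 3.11.15, pandas 2.3.3, numpy 2.4.6) for rows above 0 in both groups and at least 1 FPKM in the higher, and called at 1.5-fold. The code for folds and counts was checked by putting known folds into values of control total RNA. This check did not cover the strand inference, the KRAB and finger patterns, the shared stretches or the promoters. Replicates are libraries whose origin in separate cultures the labels do not state.

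Named rows were the 5 highest and 5 lowest of each treatment comparison, the 4 highest and 4 lowest nuclear to total ratios in control cells, the 8 highest levels in control total RNA, every row past 1.5-fold in the same direction in all 3 treatment comparisons, and 15 genes with a known role. Other rows were named after their values were seen, to account for the called rows. The members, lists and rules were chosen with earlier results of these data known. KRAB boxes and fingers were found by pattern in coding sequences of canonical GENCODE transcripts. ZNF274, whose frame is broken there, was left out of both. Where a symbol has several RefSeq promoters the first was used. Other-strand rows were counted without a minimum level, a choice made after the data were seen, because most of those past 1 FPKM reached it in the treated group only.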

Additional observations from a re-analysis of the deposited data

How the results depend on the processing

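Another minimum level, a pseudocount of 1 FPKM, centring on the median of all rows, leaving out rows that merge several names and, added after the data were seen, leaving out the other-strand rows were tried for the counts and medians of all 5 comparisons. With no minimum level the rows higher and lower by 1.5-fold were 21 and 16 in siPAP total, 33 and 12 in siPAP nuclear (median log2 fold 0.00285), 41 and 2 in LALA nuclear, 3 and 7 in control nuclear against control total and 9 and 3 in siPAP nuclear against siPAP total. With a minimum of 5 FPKM the higher and lower rows were 7 and 3 in siPAP total and 11 and 3 in siPAP nuclear. At that minimum 10 were higher in LALA nuclear and 1 in siPAP nuclear against siPAP total. With the pseudocount the lower rows were 2, 1 and 0 in the 3 treatment comparisons, and 1 was higher in siPAP nuclear against siPAP total. Centring left 5 and 3 lower rows in siPAP total and nuclear RNA and gave 40 higher and 0 lower in LALA nuclear RNA, with median log2 folds of 0.0635 in siPAP nuclear RNA and 0.264 in LALA cells. Without the other-strand rows 6, 11 and 11 rows were higher in the 3 treatment comparisons. Each minimum level changes how many rows are compared. Apart from those with no minimum level, the counts in this paragraph are given without the share of all rows under the same setting. For the other changes the cause was not tested. Of 51 folds of named rows past 1.5-fold, 7 fell under it when centred and 16 with the pseudocount, and none turned its direction.

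No paired analysis was possible because the table holds group means, and for the same reason no library was left out. The strand of a row is inferred from the order of assembly numbers. Folds of rows under about 1 FPKM, which include most other-strand rows, are the least certain, by an amount that group means do not show. Rows with much shared sequence and rows that merge names cannot be assigned to a single gene.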
